A study of Homo sapiens with 12 samples.

Results

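The genes described here were 44 in number: the transcription factor NFE2L1, the enzymes DDI2 and NGLY1 that mature it, and 41 subunits, activators and assembly factors of the proteasome. They were listed by name because the mRNA of NFE2L1 fell after an siRNA against POLR3A, and the question was whether the proteasome genes it is known to drive went with it. Of the 44 listed, 41 were measured among 34290 genes in all, and PSMC4, PSME1 and PSME2 were not analysed here. All 41 passed the filter on low counts in both comparisons. The siRNA comparison chose the list, so its values for these genes are given as a description, with standard errors (SE) and no p-value. The comparison with the inhibitor ML60218 took no part in the choice, and its tests are given.

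NFE2L1, also known as NRF1, is a transcription factor that is made at the endoplasmic reticulum and held in its membrane. The ATPase p97 (VCP) pulls it out, the enzyme NGLY1 removes its sugar chains, and the protease DDI2 cuts it free. When proteasomes keep up they destroy the protein, and when they are overwhelmed it reaches the nucleus, pairs with small MAF proteins and raises proteasome genes through antioxidant response elements. The proteasome itself is a barrel of alpha and beta rings, the 20S core, in which 3 of the beta subunits cut proteins, capped by the 19S particle that recognises ubiquitin, unfolds the substrate with a ring of ATPases and feeds it in.

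HEK293T, an established line from human embryonic kidney that takes up nucleic acids readily, was used throughout, at passages between 10 and 25. In the first experiment RNAiMax carried an siRNA into the cells for 2 days, either the control (siControl) or the one that targets POLR3A (siPOLR3A), the largest subunit of RNA polymerase III. In the second they were given 0.1% DMSO, the vehicle, or 25 µM ML60218, a small-molecule inhibitor of that polymerase, and were taken after 4 hours. Each of the 4 groups held 3 libraries. Nothing in the labels says that these came from separate cultures, so p-values measure the spread between these libraries, which may be technical. All libraries came from 1 cell line, with no added genetic change beyond the line's own.

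The libraries held 37008325 to 49479476 estimated reads. POLR3A, the target of the siRNA, stood at 92.2, 93.5 and 86.8 CPM in the siControl libraries and at 19.3, 19.04 and 14.6 CPM in the siPOLR3A libraries, a log2 fold change of −2.36. CPM is a read count scaled to the size of its library with TMM factors, and the values of a group are given in the order of its libraries. Of 9 markers of the line, VIM, CDH2, NEFL and NEFM were abundant, and KRT18 stood between 29.01 and 37.1 CPM. PAX2 (5.26 to 8.19 CPM), KRT8 (1.89 to 5.37 CPM) and LHX1 (0.219 to 1.76 CPM) were low. PAX8 was near 0, below 0.1 CPM in each library. The 9 markers summed to between 1225 and 1252 CPM in the siControl libraries and between 779 and 797 CPM in the siPOLR3A libraries. After siPOLR3A the 4 abundant markers were called lower and 1 (KRT18) higher. The sum of the 9 was between 1045 and 1067 CPM with DMSO and between 1112 and 1128 CPM with ML60218. KRT8, NEFL and NEFM were called higher with ML60218. The part of these shifts in the values below was not tested. Of 14 markers of other cell types, PTPRC and LHCGR had no read in any library, and the 14 summed to 30.3 to 32.9 CPM after siControl and 37.1 to 39.0 CPM after siPOLR3A, and to 27.5 to 28.3 CPM with DMSO and 25.01 to 27.3 CPM with ML60218, nearly all of it COL1A1.

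The sequence that ties NFE2L1 to its targets is the antioxidant response element, whose core reads TGACNNNGC on either strand. In the RefSeq promoter table (GRCh38.p14, 250 bases before to 50 after each gene's start), 38 of the 44 genes had an entry, and 11 of them (28.9%) held the core, against 13.3% of all 35116 promoters. The stricter form TGACTCAGC, which lies within the core pattern, was found in 0 of the 38 and in 0.561% of all promoters. In the 250 bases before the start alone, the core was in 9 of the 38 (23.7%) and in 10.9% of all. No match says only that these letters were not in the window. The 7 matches before the start of measured genes are shown because they are the places ahead of the start where the element could be read. Matches after the start of measured genes, in PSMD3 (position 33) and PSMD1 (position 39), are not shown. Capitals mark the core, and each line reads 5′ to 3′ along the strand that carries it. The element's position is counted from the gene's start.
PSMD3 (plus strand, chr17:39980760-39980788, position −37): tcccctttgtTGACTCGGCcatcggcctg
PSMB3 (plus strand, chr17:38752627-38752655, position −104): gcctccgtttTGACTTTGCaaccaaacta
PSMD12 (minus strand, chr17:67366724-67366752, position −165): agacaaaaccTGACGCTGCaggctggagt
ADRM1 (plus strand, chr20:62302749-62302777, position −137): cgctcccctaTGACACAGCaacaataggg
PSME4 (plus strand, opposite to the gene, chr2:53971009-53971037, position −34): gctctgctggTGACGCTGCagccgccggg
PSMG1 (minus strand, chr21:39183616-39183644, position −183): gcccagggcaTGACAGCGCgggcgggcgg
PSMG2 (plus strand, chr18:12658689-12658717, position −39): cagtttcccgTGACCCCGCggccgctctg
Of these genes PSMD3, PSMD12, PSMG1 and PSMG2 were called lower after the siRNA, ADRM1 was called higher, and PSMB3 and PSME4 were not called. Over all genes tested 29.2% were called lower and 27.4% higher.

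NFE2L1 (ENSG00000082641, chr17:48048329-48061487 on the plus strand of GRCh38 in GENCODE release 29) stood at 173, 175 and 172 CPM in the siControl libraries and at 61.02, 59.8 and 58.9 CPM in the siPOLR3A libraries. Every siPOLR3A library lay far below every siControl library, and the spread within each group was about 1 CPM. The log2 fold change was −1.53 (SE 0.0268), a fold of 0.346, and it ranked 76 from the lowest of the 15394 genes tested. In bulk RNA, less NFE2L1 mRNA in every cell and its loss from a share of the cells cannot be told apart.

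The enzymes that mature NFE2L1 moved in opposite directions. DDI2 (ENSG00000197312, chr1:15617500-15669044, plus strand), the protease that cuts it, stood at 135, 129 and 129 CPM after siControl and 178, 182 and 189 CPM after siPOLR3A. All 3 siPOLR3A libraries were above all siControl libraries, with a log2 fold change of 0.49 (SE 0.0292). NGLY1 (ENSG00000151092, chr3:25718944-25790039, minus strand), the glycanase that strips N-linked sugars from retrotranslocated proteins, stood at 70.2, 66.9 and 70.7 CPM and at 61.1, 57.03 and 56.4 CPM. Its siPOLR3A libraries were all below the siControl libraries, and the log2 fold change was −0.25 (SE 0.0375).

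**Figure D1:**
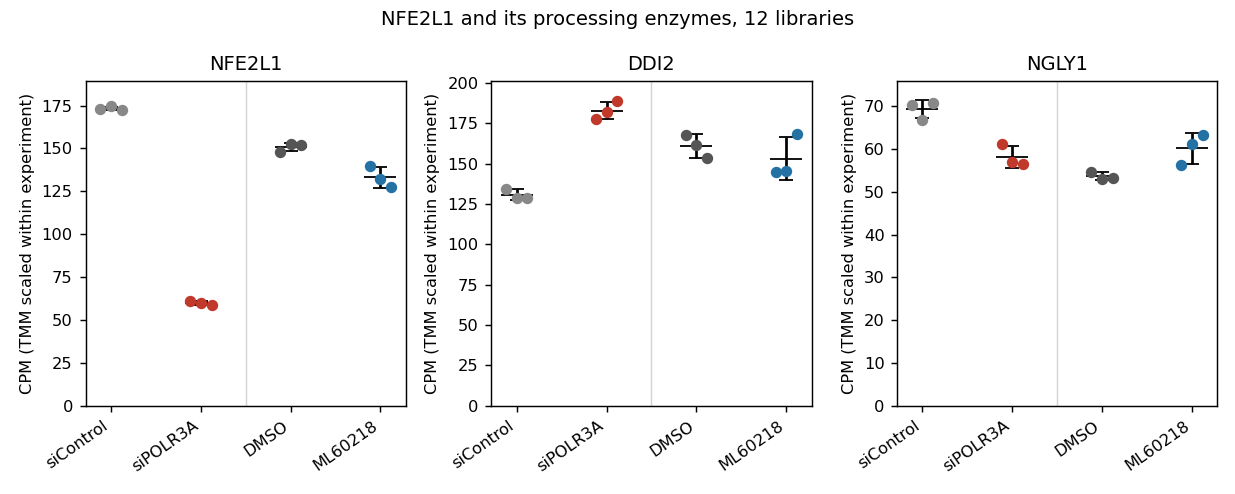
Each panel plots CPM of 1 gene (y axis, from 0) in the 12 libraries by group (x axis); points are libraries, the bar is the mean and the whiskers are ± 1 SD (n = 3). NFE2L1 fell from about 173 to 59.9 CPM after the siRNA and from 151 to 133 CPM with ML60218.

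After the siRNA the proteasome genes changed little beside NFE2L1. Of the 41 measured genes, 21 were called lower and 8 higher at an adjusted p under 0.05, and 12 were not called. Over all 15394 genes tested, 56.6% were called, 29.2% lower and 27.4% higher. The median log2 fold change of the 41 genes was −0.11, that of all genes 0.0054, and 31 of the 41 lay below 0. Groups did not overlap in CPM for 31 of the 41, against 63.4% of all genes. The calls of PSMA7, PSMD2, ADRM1 and PSMG2 were lost without at least 1 library. Because this comparison chose the list, nothing is read from these counts. No measured gene of the list other than NFE2L1 changed by as much as 2-fold, and the nearest to it was PSMD3 at −0.60.

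Among the 7 alpha subunits, which form the outer rings of the core and its gate, 4 were called lower and 2 higher. PSMA2 was the lowest, at 142, 144 and 147 CPM after siControl and 121, 126 and 126 CPM after siPOLR3A, a log2 fold change of −0.22 (SE 0.0269). PSMA4 was the highest, at 226, 233 and 241 CPM and 277, 274 and 274 CPM, a log2 fold change of 0.24 (SE 0.0258). The libraries of the 2 groups did not overlap for either gene, and the changes had opposite signs. PSMA3 (−0.13), PSMA5 (−0.13) and PSMA6 (−0.16) were called lower, PSMA7 (0.07) was called higher, and PSMA1 stood at −0.01 with overlapping groups.

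The 7 beta subunits form the inner rings, and PSMB5, PSMB6 and PSMB7 carry the chymotrypsin-like, caspase-like and trypsin-like cutting sites. All 7 had a log2 fold change below 0, except that PSMB6 stood at 0.0066 on the deposited TPM, at 0.035 when scaled by total counts and at 0.046 when scaled by the upper quartile, and 4 were called lower. PSMB2 was the lowest, at 173, 185 and 181 CPM after siControl and 139, 138 and 134 CPM after siPOLR3A, a log2 fold change of −0.40 (SE 0.0289). PSMB6 was nearest to 0, at 65.9, 67.2 and 66.5 CPM and 66.2, 64.9 and 66.4 CPM, with a log2 fold change of −0.01 (SE 0.0292) and overlapping groups. PSMB1 (−0.29), PSMB5 (−0.12) and PSMB4 (−0.11) were called lower; PSMB7 (−0.08) and PSMB3 (−0.18) were not. PSMB3 varied more between replicates than any other measured gene of the list in each of the 4 groups, with a coefficient of variation of 8.31% to 16.9%, against group medians of 1.74% to 4.33%.

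Of the 6 ATPases that form the ring of the 19S base and pull the substrate in, 5 were measured, and 1 was called in each direction. PSMC3 was the highest, at 96.7, 105 and 102 CPM after siControl and 127, 123 and 120.4 CPM after siPOLR3A, a log2 fold change of 0.28 (SE 0.0333). PSMC2 was the lowest, at 116, 119.9 and 124 CPM and 107, 111 and 109.7 CPM, a log2 fold change of −0.14 (SE 0.0307). Neither pair of groups overlapped. PSMC1 (0.05), PSMC5 (−0.06) and PSMC6 (0.0017) were not called.

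Of the 12 other subunits of the 19S particle, including the ubiquitin receptor ADRM1, 7 were called lower and 2 higher. PSMD3 (ENSG00000108344, chr17:39980797-39997960, plus strand), a scaffold subunit of the lid, stood at 129, 135 and 132 CPM after siControl and 87.3, 88.3 and 84.9 CPM after siPOLR3A, a log2 fold change of −0.60 (SE 0.0288). ADRM1 was the highest, at 35.9, 40.3 and 41.2 CPM and 45.3, 41.6 and 45.5 CPM, a log2 fold change of 0.17 (SE 0.0553). The lowest siPOLR3A value of ADRM1 exceeded the highest siControl value by less than 1 CPM, and after the trend of GC content and length was taken out the log2 fold change of ADRM1 was −0.028. PSMD4, also a ubiquitin receptor of the particle, stood at −0.39, and PSMD1, the large scaffold of the base, at −0.20. PSMD11 (−0.22), PSMD8 (−0.14), PSMD14, the deubiquitinase (−0.12), and PSMD12 (−0.11) were also called lower and PSMD2 (0.06) higher. PSMD6 (−0.05), PSMD7 (−0.02) and PSMD13 (−0.01) were not called.

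Of the activators that replace the 19S cap, PSME3 (PA28 gamma) stood at 214, 225 and 222 CPM after siControl and 247, 238 and 243 CPM after siPOLR3A, a log2 fold change of 0.14 (SE 0.0258). PSME4 (PA200) stood at 262, 256 and 256 CPM and 251, 249.8 and 249 CPM, −0.05 (SE 0.0221), and was not called although its groups did not overlap; it stood above 0 when scaled by the upper quartile (0.014) or total counts (0.0028), on TPM (0.0098) and after the trend of GC content and length was taken out (0.030). The 5 assembly factors, which guide the alpha and beta rings together, held both the largest rise among the proteasome genes and 1 of their larger falls. PSMG4 stood at 23.8, 23.1 and 22.7 CPM and 32.9, 29.4 and 31.8 CPM, a log2 fold change of 0.44 (SE 0.0512). PSMG1, the partner of PSMG2, stood at 70.1, 73.4 and 74.8 CPM and 58.4, 55.98 and 56.3 CPM, a log2 fold change of −0.36 (SE 0.034). POMP (−0.19) and PSMG2 (−0.14) were called lower, and PSMG3 (−0.01) was not called.

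**Figure D2:**
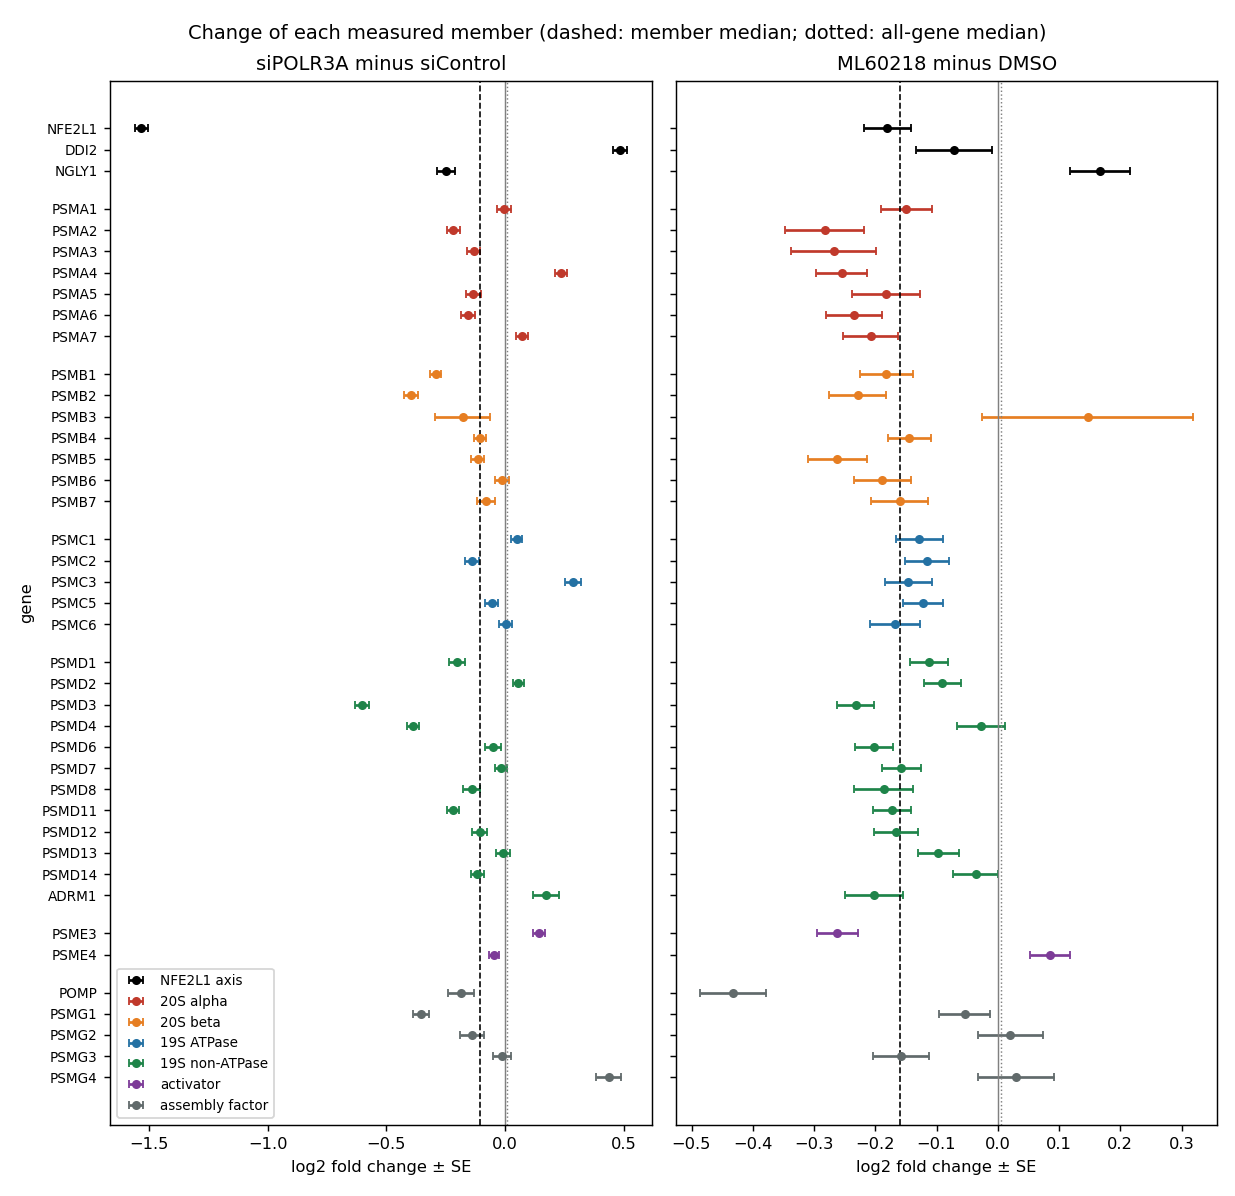
Points are the log2 fold change of each of the 41 measured genes (y axis, grouped by role in colour) with whiskers of ± 1 SE, after the siRNA (left) and with ML60218 (right), on x axes of different range. NFE2L1 stands apart at −1.53 on the left, and most subunits lie between 0 and −0.3 on the right.

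The amounts of the subunit mRNAs were compared per length, in the deposited TPM (transcript abundance per length, scaled to a fixed total). TPM values were summed over all transcripts of a gene, coding or not. The 31 measured 20S and 19S subunits summed to 5088 ± 156 TPM (SD, n = 3) after siControl and 4881 ± 44.7 TPM after siPOLR3A, a log2 ratio between −0.08 and −0.04 when each replicate was left out in turn. They summed to 6207 ± 161 TPM with DMSO and 6105 ± 234 TPM with ML60218, a difference smaller than the spread of either group. PSMA4 had the highest summed level of the 31, at 434 ± 16.7 TPM after siControl and 666 ± 27.9 TPM with DMSO. Of these, 183 ± 6.57 and 271 ± 13.9 TPM were PSMA4-203, a transcript of 635 bases annotated as processed and not as coding. The order of coding transcripts alone was not compared. PSMB1 ranked 2 and PSMB4 ranked 3 in both control groups, at 397 ± 13.5 and 334 ± 13.7 TPM after siControl. ADRM1 was the lowest, at 49.4 ± 2.97 and 67.1 ± 3.68 TPM. Of the 30 pairs of neighbours in the order of the siControl means, 15 differed by less than the larger of their SDs, such as PSMD4 (193 ± 2.24) and PSMD2 (192 ± 8.98), and the other 15 by more, such as PSMA3 (274 ± 9.81) and PSMC1 (254 ± 3.29). The alpha subunits, which occur in equal numbers in the core, spanned summed levels from 82.01 ± 5.73 TPM for PSMA5 to that of PSMA4 after siControl. Within PSMA5 the coding PSMA5-201 held 14.9 ± 1.29 TPM and the processed transcript PSMA5-204 held 49.1 ± 3.26 TPM. Within PSMC1 the retained-intron transcript PSMC1-205 held 170 ± 2.07 TPM. These summed levels are therefore not levels of coding mRNA. NFE2L1 itself stood at 53.2 ± 1.21 TPM after siControl and 18.8 ± 3.75 TPM after siPOLR3A.

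**Figure D3:**
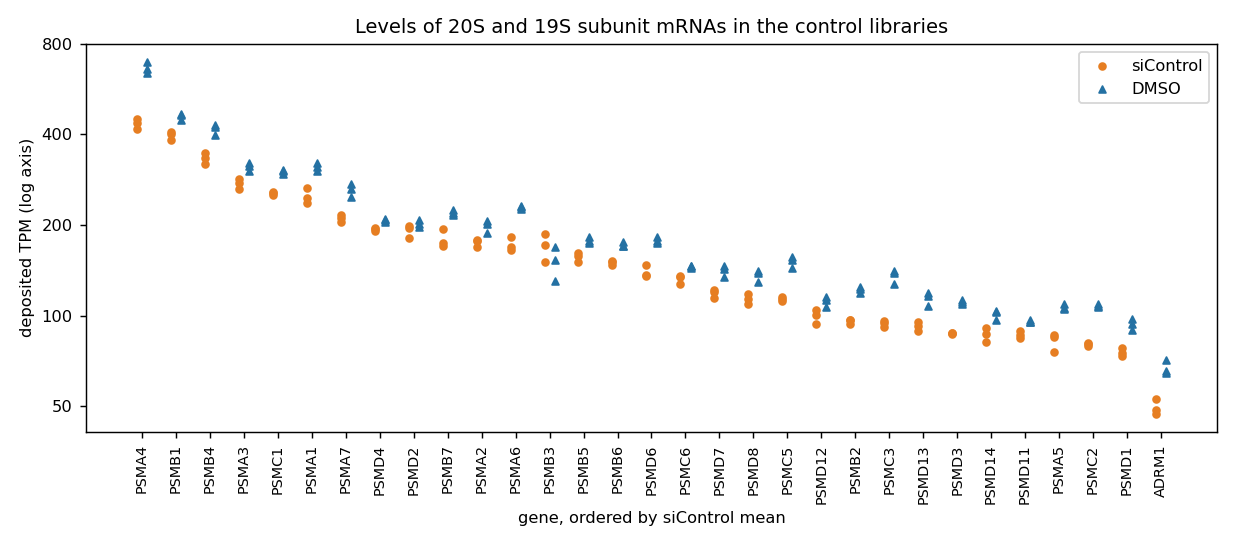
Each point is the deposited TPM (y axis, log scale) of 1 of the 31 measured 20S and 19S subunit genes (x axis, ordered by the siControl mean) in a siControl (circle) or DMSO (triangle) library. Levels, summed over coding and other transcripts, run from 49.4 TPM for ADRM1 to 434 TPM for PSMA4 in the siControl means.

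With ML60218 for 4 hours the proteasome genes were slightly but broadly lower relative to other genes. Of the 41 measured genes, 32 were called lower by edgeR's quasi-likelihood test with Benjamini-Hochberg adjustment over all 15451 genes, 1 (NGLY1) was called higher, and 8 were not called. Over all genes tested, 39% were called, 20.9% lower and 18.1% higher. The median log2 fold change of the 41 genes was −0.16 against 0.0054 over all genes, and 36 of the 41 lay below 0. Groups did not overlap in CPM for 34 of the 41, 32 of them with ML60218 below, whereas over all genes 51.9% did not overlap and 27.1% had ML60218 below. Of the 31 measured 20S and 19S subunits, 28 were called lower and 0 higher, with a median of −0.17, although 9 of the 28 stood above 0 on the deposited TPM.

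These falls were small, and how many passed the test depended on the scaling. With total counts in place of TMM, 15 of the 41 genes were called lower, with upper quartile scaling 22, and on the deposited TPM, tested with limma on log2(TPM + 0.5), 2 were called lower and 3 higher. On TPM the genes called lower that stood above 0 were the 5 ATPases with PSMD1, PSMD2, PSMD12 and PSMD13. The same change of scale moved all genes: their median was 0.08 with total counts and 0.12 on TPM. Over the reported fit and its 18 alternatives, the median of the 41 genes stayed below that of all genes by 0.13 to 0.19, and only this position relative to the other genes is reported, not a change in absolute amount. Without DMSO replicate 2, 21 genes were called lower. ML60218 replicate 3 was the lowest of its group in 31 of the 32 genes called lower, and the median of the 41 genes against the DMSO mean was −0.13, −0.11 and −0.23 in the 3 ML60218 libraries; without that replicate 28 of the 32 were still called lower. Calls that were lost without at least 1 of the 6 libraries were those of 13 of the 32 genes, PSMA1, PSMA3, PSMA5, PSMB7, PSMC1, PSMC2, PSMC3, PSMC5, PSMD1, PSMD2, PSMD8, PSMD13 and PSMG3.

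**Figure D4:**
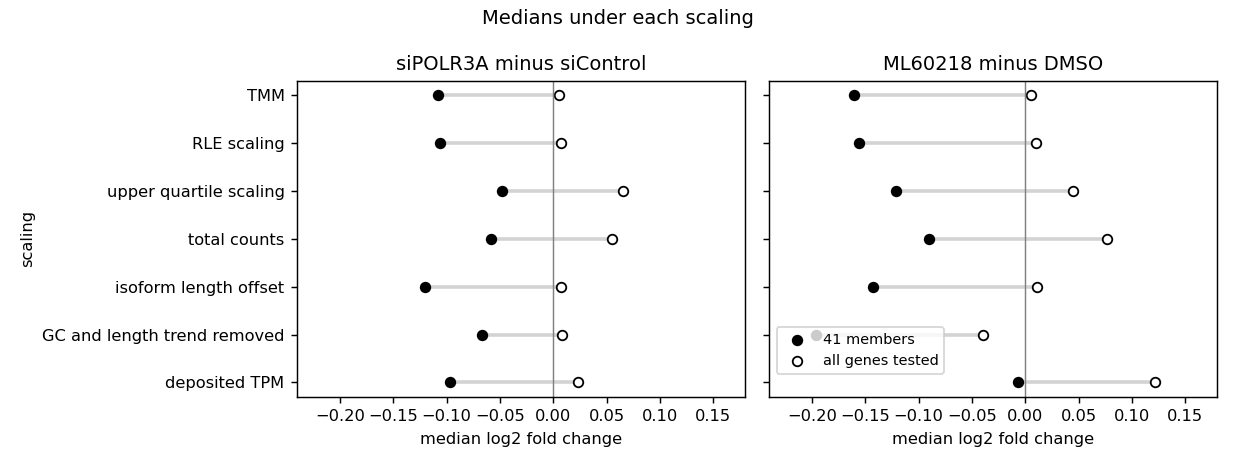
Points are the median log2 fold change (x axis) of the 41 measured genes (filled) and of all genes tested (open) under 7 ways of scaling the libraries (y axis), after the siRNA (left) and with ML60218 (right). The filled point lies left of the open one throughout; on the deposited TPM with ML60218 the medians are −0.0073 and 0.12.

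NFE2L1 stood at 148, 153 and 152 CPM with DMSO and 139.8, 132 and 128 CPM with ML60218. All 3 ML60218 libraries were below all DMSO libraries, and the log2 fold change was −0.18 (SE 0.0385, edgeR adjusted p 0.00521). On the deposited TPM the gene stood at 48.1 ± 2.97 and 47.8 ± 1.27 TPM, and the adjusted p (limma) was 0.931; with an offset for isoform length the edgeR adjusted p was 0.0817. DDI2 stood at 168, 161 and 153 CPM and 145, 146 and 168 CPM, with overlapping groups and a log2 fold change of −0.07 (SE 0.0621, edgeR adjusted p 0.402), whose 95% interval ran from −0.19 to 0.05. Without ML60218 replicate 3 it stood at −0.15 with an edgeR adjusted p of 0.0176, and after the trend of GC content and length was taken out at −0.26. Of the 19 settings, the reported fit and its 18 alternatives, 3 called DDI2 lower. NGLY1 stood at 54.7, 53.00 and 53.3 CPM and 56.2, 61.2 and 63.2 CPM. Its ML60218 libraries were all above the DMSO libraries, the log2 fold change was 0.17 (SE 0.0487, edgeR adjusted p 0.0217), and the call held in 11 of the 19 settings, with adjusted p from 0.00205 to 0.241.

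All 7 alpha subunits were called lower with ML60218, with a median log2 fold change of −0.23. PSMA2 was the lowest, at 159.8, 163 and 156 CPM with DMSO and 140.4, 137 and 117 CPM with ML60218, −0.28 (SE 0.0646, edgeR adjusted p 0.0104). PSMA1 was the highest, at 212, 217 and 215 CPM and 196, 204 and 181 CPM, −0.15 (SE 0.0421, edgeR adjusted p 0.0188). For neither gene did the groups overlap, and in both the third ML60218 library was the lowest. The others lay between PSMA3 at −0.27 and PSMA5 at −0.18. PSMA4, which was higher after the siRNA, fell to 311, 314 and 282 CPM from 364, 356 and 361 CPM with DMSO, −0.26 (SE 0.0418, edgeR adjusted p 0.00142).

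Of the 7 beta subunits 6 were called lower. PSMB5, the chymotrypsin-like subunit, was the lowest, at 111, 109.7 and 113 CPM with DMSO and 93.4, 98.9 and 85.9 CPM with ML60218, −0.26 (SE 0.0489, edgeR adjusted p 0.00269). PSMB3 was the only beta subunit above 0, at 54.1, 71.7 and 68.3 CPM and 70.1, 84.6 and 60.5 CPM, 0.15 (SE 0.172, edgeR adjusted p 0.556), with wide and overlapping groups. The other cutting subunits PSMB6 (−0.19) and PSMB7 (−0.16) were called lower, as were PSMB2 (−0.23), PSMB1 (−0.18) and PSMB4 (−0.14).

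All 5 measured ATPases were called lower within a narrow range, and all 5 stood between 0.0035 and 0.061 on the deposited TPM. PSMC6 was the lowest, at 151, 155 and 162 CPM with DMSO and 145, 138 and 133 CPM with ML60218, −0.17 (SE 0.0406, edgeR adjusted p 0.0093). PSMC2 was the highest, at 156, 159 and 161 CPM and 147, 152 and 141 CPM, −0.12 (SE 0.0354, edgeR adjusted p 0.0265). The groups of neither gene overlapped in CPM. PSMC3, PSMC1 and PSMC5 lay at −0.15, −0.13 and −0.12.

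Of the 12 other 19S subunits, 10 were called lower and 0 higher, with 4 of the 10 above 0 on the deposited TPM. PSMD3, the lowest after the siRNA, was the lowest here too, at 160.2, 163 and 166 CPM with DMSO and 139, 140.3 and 137 CPM with ML60218, −0.23 (SE 0.0304, edgeR adjusted p 0.00052). Every ML60218 library of PSMD3 lay well under every DMSO library, and the gene was called in 18 of the 19 settings. PSMD4 was nearest to 0, at 185, 192 and 202 CPM and 192, 193 and 183 CPM, −0.03 (SE 0.0394, edgeR adjusted p 0.616), with overlapping groups and a 95% interval from −0.10 to 0.05; it stood above 0 under 4 of the 18 alternatives. PSMD14 (−0.04) was not called. PSMD6, ADRM1, PSMD8, PSMD11, PSMD12 and PSMD7 were called lower at −0.20, −0.20, −0.19, −0.17, −0.17 and −0.16, and PSMD1, PSMD13 and PSMD2 at −0.11, −0.10 and −0.09.

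Outside the particle itself, POMP (ENSG00000132963, chr13:28659104-28678925, plus strand), the chaperone that helps the beta rings mature and is used up in each new core, fell most of the 41 genes. It stood at 64.3, 63.2 and 59.4 CPM with DMSO and 47.8, 47.8 and 43.00 CPM with ML60218, −0.43 (SE 0.0531, edgeR adjusted p 0.000382). No ML60218 library came within 10 CPM of a DMSO library, and POMP was called under each of the 19 settings, with adjusted p up to 0.00887. PSME3 stood at 311, 316 and 307 CPM and 261, 268 and 250.2 CPM, −0.26 (SE 0.0334, edgeR adjusted p 0.000455), and was likewise called in each of the 19. PSME4 stood at 222, 232 and 229 CPM and 236, 247 and 242 CPM, 0.09 (SE 0.032, edgeR adjusted p 0.0585); its groups did not overlap, but it missed the threshold, and once the trend of GC content and length was taken out its log2 fold change was −0.041. PSMG4 stood at 27.3, 29.5 and 32.1 CPM and 31.03, 29.7 and 30.1 CPM, 0.03 (SE 0.0617, edgeR adjusted p 0.74), with overlapping groups. PSMG3 (−0.16) was called lower, and PSMG1 (−0.05) and PSMG2 (0.02) were not called.

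Set side by side, 16 genes were called lower in both comparisons, among them NFE2L1, PSMA2, PSMB2, PSMB5, PSMC2, PSMD3 and POMP. PSMA4, PSMA7, PSMC3, PSMD2, ADRM1 and PSME3, 6 in all, were called higher after the siRNA but had a lower call with ML60218, and NGLY1 was called lower and then higher. PSMD4, PSMD14, PSMG1 and PSMG2 were called lower after the siRNA only, and 10 genes with ML60218 only. Of the 15155 genes tested in both comparisons, 7.52% were called lower in both, 7.5% higher and then lower, and 6.44% lower and then higher. Because the siRNA comparison chose the list, nothing is read from these joint counts. The comparisons differ in agent, time and control cells, and the difference between them was not tested.

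NFE2L1 is made from several transcripts, and 3 coding ones carried most of its reads. NFE2L1-201 encodes 742 residues, NFE2L1-202 encodes 761 and NFE2L1-203 encodes 772; the longest protein is known as TCF11. The longer forms hold a coding exon of 90 bases that NFE2L1-201 lacks, in frame and coding for 30 residues. It is shown, as GENCODE release 29 gives it for GRCh38 at chr17:48057032-48057121 on the plus strand, because it separates the transcripts whose shares moved.
NFE2L1 exon: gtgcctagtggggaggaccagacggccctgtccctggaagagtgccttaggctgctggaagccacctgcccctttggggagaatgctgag
After the siRNA all 3 transcripts were lower. NFE2L1-201 went from 27.1 ± 1.07 to 9.52 ± 0.241 TPM, NFE2L1-203 from 8.85 ± 0.903 to 2.86 ± 0.31 TPM, and NFE2L1-202 from 4.29 ± 0.295 to 1.72 ± 0.345 TPM (SD, n = 3). Their shares of the gene's reads stood at 64.5%, 21.7% and 10.4% after siControl and at 64.6%, 19.96% and 11.8% after siPOLR3A for NFE2L1-201, NFE2L1-203 and NFE2L1-202.

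With ML60218 the share of NFE2L1-203 was higher. It stood at 19.1%, 15.9% and 17.1% of the gene's reads in the DMSO libraries and at 24.8%, 26.8% and 27.4% in the ML60218 libraries, while NFE2L1-201 stood at 66.2%, 71.0% and 67.9% and then at 61.1%, 58.5% and 59.6%. The groups did not overlap for either transcript, and NFE2L1-202 stayed at about 10%. The shift of NFE2L1-203 was 9.01 percentage points, with a two-sided exact permutation p of 0.1, the smallest that 3 libraries against 3 allow. Among 24889 transcripts of genes with enough reads, 22.5% had shares that did not overlap between the groups and 7.45% moved at least as far. The shares were looked at after their values had been seen, the split of reads between similar transcripts carries an error that the deposited table does not give, and the deposited NFE2L1-203 (4839 bases) was a later version than the 4774 bases of the reference. The make-up of NGLY1 also differed after the siRNA, given as a description only. NGLY1-202 held 53.0%, 59.7% and 49.9% of the gene's reads after siControl and 37.4%, 33.4% and 39.2% after siPOLR3A. There 29.7% of all transcripts compared did not overlap. In the reference NGLY1-202 encodes 654 residues, and the deposited one (2534 bases) was longer than the 2473 bases of the reference.

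**Figure D5:**
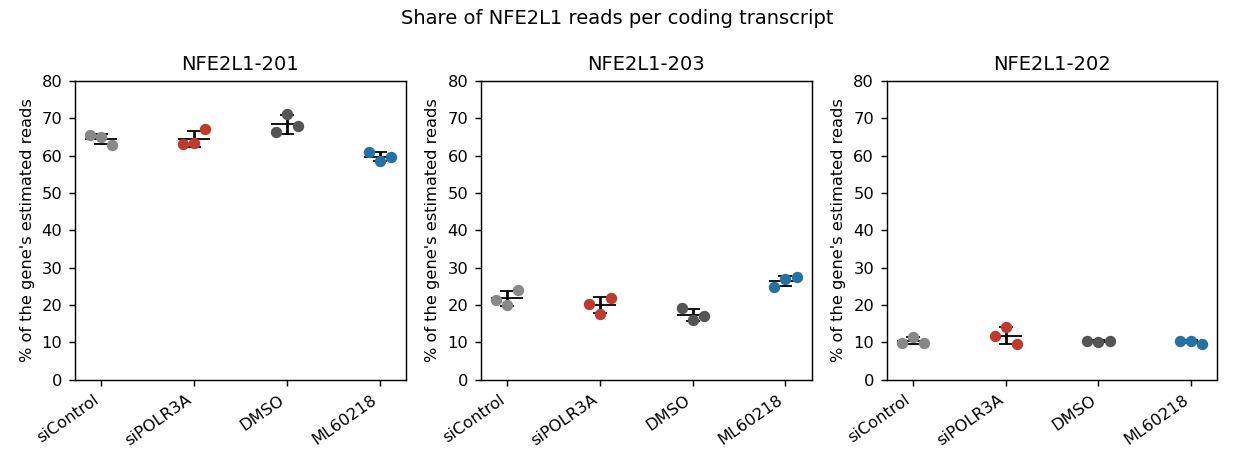
Each panel plots the share of the estimated reads of NFE2L1 (y axis, percent) carried by 1 coding transcript in the 12 libraries by group (x axis); points are libraries, bars means and whiskers ± 1 SD (n = 3). With ML60218 the share of NFE2L1-203 lies between 24.8% and 27.4%, above the 15.9% to 19.1% of DMSO.

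Proteasome genes with and without the promoter element were then set side by side. The 8 measured proteasome genes with the core in the promoter window had a median log2 fold change of −0.16 after the siRNA, 5 called lower and 1 higher, and the 24 without it had a median of −0.08, 12 called lower and 5 higher. Over all genes tested after the siRNA, 29.2% were called lower and 27.4% higher, and nothing is read from these counts. With ML60218 the order was the other way round, with medians of −0.08 with the core and −0.17 without it. There 4 of the 8 with the core and 22 of the 24 without it were called lower and 0 higher, against 20.9% of all genes called lower. PSMD3, whose element before the start is printed above, was the lowest of those with the core in both comparisons. PSMB2, with no core in its window, was the lowest of those without it after the siRNA.

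A 6-base sequence in 3′ untranslated regions was also counted, because in an earlier look at these data GAGGGA was frequent among the genes that fell after the siRNA. In the reference transcripts, 67.3% of the 284 genes called lower by at least 2-fold held it in the 3′ UTR, against 30.7% of 5714 genes that were not called. GAGGGA was picked from this same comparison, so that difference was fixed beforehand and is a description only. NFE2L1 held 3 copies. Of the 41 measured genes 7 held it (17.1%), with PSMG4, which was higher after the siRNA, holding 4 copies and PSMB2, PSMD4, PSMG3, PSME4 and DDI2 holding 1 each. Over all 14071 tested genes with a coding transcript 34.4% held it, as did 33.8% of the 234 genes called higher by at least 2-fold. The 3′ UTRs differed in length, with medians of 302 bases in the 41 genes and 1036 in all genes. The medians were 1279.5 in those that were lower by at least 2-fold, 894.5 in those higher by as much and 869 in those not called. The median log2 fold change after the siRNA was −0.047 for the 7 genes with GAGGGA and −0.11 for the 34 without it. PSME3 and PSMG1 had a 3′ UTR of 0 bases in the transcripts used, so none was searched. Both count among the 34. A second sequence of 6 bases, GACGTA, was held by DDI2 and PSMG4 alone of the 41, both higher after the siRNA. Their 3′ UTRs, of 9254 and 4226 bases, were the longest of the 41. Of all 14071 genes 3.87% held GACGTA. The share was 11.5% of those called higher by at least 2-fold, 2.11% of those lower by as much and 3.08% of those not called. GACGTA too was listed with earlier results of these data known, so its match to these 2 genes is a description only. The siRNA's own sequence is not given in the sources used here. The part of GAGGGA in the fall of NFE2L1, and of GACGTA in the rises of DDI2 and PSMG4, was not tested.

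Other genes of the pathway gave mixed counts. Of all genes tested, 29.2% were called lower and 27.4% higher after the siRNA. The shares with ML60218 were 20.9% lower and 18.1% higher. The lists in this paragraph and the next are small, and nothing is read from their counts. Among 6 chaperones and inhibitors of the 19S particle, 4 were called lower and 1 higher after the siRNA; PSMD10 (gankyrin), a chaperone of the ATPase ring, stood at 111, 109.9 and 112 CPM after siControl and 44.8, 46.6 and 46.2 CPM after siPOLR3A, −1.28 (SE 0.0293). With ML60218 2 of the 6 were called lower and 1 higher, PSMD10 at −0.29 (SE 0.0522, edgeR adjusted p 0.00236) and PAAF1, another such chaperone, at 0.18 (SE 0.0477, edgeR adjusted p 0.0147), a call lost without DMSO replicate 1 or DMSO replicate 3 (edgeR adjusted p up to 0.0688). Among 11 shuttle factors and parts of the p97 machinery, 6 were called lower and 3 higher after the siRNA, with UBQLN4, a ubiquitin shuttle, at 124, 126 and 129.7 CPM and then 50.3, 50.7 and 46.9 CPM, −1.36 (SE 0.0338). With ML60218 5 of the 11 were called lower and 0 higher, and VCP, the p97 ATPase that frees NFE2L1 from the membrane, went from 369, 348 and 363 CPM to 284, 297 and 263 CPM, −0.36 (SE 0.0451, edgeR adjusted p 0.000448).

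Of 7 genes of retrotranslocation from the endoplasmic reticulum, 5 were called higher and 1 lower after the siRNA, led by DERL1 at 0.65 (SE 0.0325) and SEL1L at 0.45 (SE 0.0304). With ML60218 2 were called higher and 2 lower; HERPUD1, a stress-induced part of the same machinery, went from 44.8, 43.6 and 46.04 CPM to 63.6, 69.3 and 67.9 CPM, 0.58 (SE 0.0454, edgeR adjusted p 8.10e-05). Of 11 relatives, partners and E3 adaptors of NFE2L1, 3 were called in each direction after the siRNA, with MAFK, a small MAF partner, at 0.52 (SE 0.0532) and NFE2L2 (NRF2), a related stress-response factor, at −0.49 (SE 0.0366). With ML60218 2 were called in each direction, with the repressors BACH2 at 0.44 (SE 0.0585, edgeR adjusted p 0.000529) and BACH1 at 0.26 (SE 0.0597, edgeR adjusted p 0.00753). Of 6 other 19S parts and attached proteins, 3 were called lower and 2 higher after the siRNA, and 2 lower and 0 higher with ML60218, UBE3C, a proteasome-bound ligase, at −0.42 (SE 0.0439, edgeR adjusted p 0.00022) and SEM1, a small lid subunit, at −0.36 (SE 0.079, edgeR adjusted p 0.011). UBB, a polyubiquitin gene, had a higher call after the siRNA (0.19), whereas with ML60218 it was called lower, at −0.15 (SE 0.0416, edgeR adjusted p 0.0183); that call was lost without any 1 of the DMSO replicates (edgeR adjusted p up to 0.0732). Of the 5 subunits restricted to immune or other tissues, PSMB10 alone had enough reads to be tested and was called in neither comparison.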

How the data were processed

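Messenger RNA of 12 HEK293T libraries was sequenced with a stranded kit. The deposited table gives, per the file headers, an estimated count and a TPM value for each of 194142 transcripts, in columns that salmon writes. The submitters' processing notes name bcl2fastq 2.20, Trim Galore, DESeq2 and hg38. The salmon version, its settings and the transcript release are not given in the sources used here, nor whether strand was used in counting, so reads of overlapping genes may be shared.

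Transcripts were matched by stable identifier to GENCODE release 29 (GRCh38): 158326 matched (81.6%), with 91.0% to 91.6% of the reads, in 34290 genes. The deposited estimated counts were then added up over the transcripts of a gene and rounded, which the planned test per gene needed. Each comparison was fitted on its 6 libraries with edgeR 4.0.16 (R 4.3.3): filterByExpr (minimum count 10, minimum total 15), TMM scaling and the robust quasi-likelihood test, two-sided, with Benjamini-Hochberg adjustment over all genes tested and a threshold of 0.05. SE is the log2 fold change divided by the square root of F. The deposited TPM values were used for levels between genes. Promoters and motifs were searched in the RefSeq table with Python 3.11.15. The fit was also run on simulated counts, with the same spread for every gene and with changes larger than most of those reported here. That check does not cover small changes or uneven spread between libraries.

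The genes and lists were chosen with earlier results of these data known. Named with full values were NFE2L1, DDI2, NGLY1, POLR3A, the highest and lowest log2 fold change of each of 6 classes in each comparison, and up to 2 called genes with the largest change per further list; PSMA4 with ML60218 was added after its values had been seen. Alternatives covered scaling, filter, DESeq2 1.42.0, isoform length, unmatched transcripts, GC and length, the replicate number and leaving out each library. The analysis with limma 3.58.1 on log2(TPM + 0.5) was added after seeing the data.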

Additional observations from a re-analysis of the deposited data

How the results depend on the processing

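The fall of NFE2L1 after the siRNA lay between −1.55 and −1.47 over the 18 alternatives. For the 41 measured genes after the siRNA, upper quartile scaling called 13 lower; the median was −0.048 with it, −0.059 with total counts, −0.067 without the GC and length trend and −0.067 with the block added to that. Leaving out 1 library gave 5 to 8 higher and 20 to 24 lower (5 higher without siControl replicate 1 or siPOLR3A replicate 1). With ML60218, 2 were higher with upper quartile scaling, total counts or the stricter filter, 0 with the isoform offset or without the GC and length trend (with the block or not) and 3 on TPM; 15 were lower with total counts and 2 on TPM, with medians of −0.090 and −0.0073. Leaving out 1 library gave 0 to 2 higher and 21 to 31 lower.

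The sign changed after the siRNA for ADRM1 (GC and length −0.028, with the block −0.025), PSMB6 (upper quartile, total counts and TPM) and PSME4 (the same, and GC and length with or without the block), as given above, and for PSMA1, PSMC5, PSMC6, PSMD6, PSMD7, PSMD13 and PSMG3, none of them called; and with ML60218 for DDI2 (TPM 0.072), PSMC2 (TPM 0.061), PSMC6 (TPM 0.0035), PSMD4 (upper quartile 0.012, total counts 0.043, TPM 0.091, and −0.058 to 0.0040 leaving out 1 library), PSME4 (GC and length −0.041, with the block −0.041) and PSMG4 (isoform offset −0.021, and −0.027 to 0.090 leaving out 1 library), for PSMD14, PSMG1 and PSMG2, none of them called, and on TPM for the genes named above; the cause was not tested. The share of all calls that were higher was 48.4% after the siRNA, and 58.9% and 57.0% with upper quartile scaling and total counts. With ML60218 it was 46.4%, and 58.7%, 67.0%, 33.4% and 82.3% with upper quartile, total counts, GC and length, and TPM.

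Same-numbered libraries showed no clear shared deviation, with correlations between −0.11 and 0.06. Whether the replicate numbers mark pairs is not in the labels. A replicate block gave 8485 calls over all genes after the siRNA and 5391 for ML60218, and of the 41 genes 6 higher and 20 lower, and 1 higher and 30 lower. The part of depth in the precision was not tested; NFE2, counted among the relatives of NFE2L1, stood below 1 CPM in each library.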
